A study of Mus musculus with 12 samples.

Results

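The 40 genes described here encode proteins that carry a cell through G2 phase and mitosis. They were taken by name from a table of 24421 gene symbols, and all 40 were found. They were measured by RNA sequencing in mouse bone marrow cells that carried GFP, lacked lineage markers and bore Kit and Sca-1 (LSK cells). This sort captures stem cells of the blood together with multipotent progenitors. The cells came from secondary recipient mice that had received stem and progenitor cells of 1 of 4 genotypes, with 3 libraries for each. The wildtype group carried neither change (its titles call it Empty), and the miR146aKO group had no miR-146a, known as a brake on innate immune signals. The Runx1mut group carried Runx1S291fsX300, a frameshift mutant of the blood transcription factor Runx1, and the miR146aKO_Runx1mut group, called the double genotype below, carried both changes. The labels give neither the age of the mice nor how the mutant was introduced, and do not tie each library to an animal of its own. The p-values therefore measure the spread between libraries only.

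Mitosis is driven by the kinase Cdk1 bound to cyclin B. Aurora and Polo-like kinases then build the spindle, the kinetochore attaches chromosomes to it, the spindle checkpoint holds back the anaphase promoting complex until all are attached, and a contractile ring separates the daughter cells. Most of these genes are transcribed in the late part of the cell cycle, held down in resting cells by the MuvB (DREAM) complex and turned on by B-Myb and Foxm1. MuvB reads a short promoter element called the cell cycle genes homology region (CHR), and the factor NF-Y reads CCAAT boxes near it. Long-term stem cells in the LSK gate are mostly out of cycle, whereas multipotent progenitors divide. In libraries made from many cells, fewer dividing cells and less of these RNAs per cell cannot be told apart.

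Because the 40 genes are described as a group, 4 of their promoters are shown with the 2 elements just named. Each sequence is the 250 bases before the gene's start in RefSeq (build GRCm38.p6), 5′ to 3′ on the gene's strand. Capitals mark TTTGAA or TTCGAA (the CHR) and CCAAT, each on either strand, so that TTCAAA and ATTGG are the same elements read the other way. The positions are chr4:118437344-118437593 (minus strand) for Cdc20, chr10:69352913-69353162 (minus) for Cdk1, chr11:99024190-99024439 (minus) for Top2a and chr7:135716380-135716629 (minus) for Mki67.
Cdc20: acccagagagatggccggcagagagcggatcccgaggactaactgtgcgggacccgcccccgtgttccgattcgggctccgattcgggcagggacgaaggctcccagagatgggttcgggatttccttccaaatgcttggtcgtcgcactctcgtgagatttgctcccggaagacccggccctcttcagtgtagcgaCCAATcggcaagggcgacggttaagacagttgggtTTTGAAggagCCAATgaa
Cdk1: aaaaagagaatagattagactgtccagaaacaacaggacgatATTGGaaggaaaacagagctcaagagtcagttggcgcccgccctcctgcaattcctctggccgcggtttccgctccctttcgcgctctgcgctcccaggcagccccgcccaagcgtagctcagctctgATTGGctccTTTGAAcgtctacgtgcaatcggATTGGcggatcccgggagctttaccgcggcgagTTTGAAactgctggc
Top2a: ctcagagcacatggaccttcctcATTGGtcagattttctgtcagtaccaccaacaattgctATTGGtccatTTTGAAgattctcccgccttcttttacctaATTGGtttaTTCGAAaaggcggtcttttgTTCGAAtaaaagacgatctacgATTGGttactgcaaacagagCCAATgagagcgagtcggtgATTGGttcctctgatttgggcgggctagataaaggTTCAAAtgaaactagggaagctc
Mki67: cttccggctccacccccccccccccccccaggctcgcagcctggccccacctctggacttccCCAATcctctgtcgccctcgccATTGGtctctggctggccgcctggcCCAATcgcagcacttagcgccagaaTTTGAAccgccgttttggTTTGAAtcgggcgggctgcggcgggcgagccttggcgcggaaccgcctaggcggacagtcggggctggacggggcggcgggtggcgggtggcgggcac
A promoter was found in RefSeq for 33 of the 40 genes. In the 250 bases before the start, 14 of the 33 (42.4%) held a CHR match, against 19.6% of the promoters of 27025 genes and 14.7% of those of 9727 genes tested here. CCAAT stood in 27 of the 33 (81.8%), against 37.5% and 40.2%, and both elements stood in 13 (39.4%), against 7.0% and 5.59%. The 5 genes Anln, Birc5, Ndc80, Nuf2 and Nusap1 held neither of these letter strings there. With the next 50 bases after the start included, 28 of the 33 (84.8%) held a CHR match, against 21.7% and 16.5%, and 25 (75.8%) held both elements, against 8.61% and 6.68%. A match is a description of the sequence and not a measured binding site.

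The microRNA missing from 2 of the genotypes is shown with its seed, bases 2 to 8, in capitals (chr11:43374435-43374456, minus strand, GRCm38.p6).
mmu-miR-146a-5p: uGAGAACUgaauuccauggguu
The site that pairs with this seed, AGTTCTC, was found in the 3′ UTR of 2 of 39 mitosis genes with an annotated one (5.13%), Ccna2 and Cdk1. It was found in 11.2% of the 3′ UTRs of 11549 genes tested, whose median length was 965 bases against 555 in the mitosis genes.

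Library totals ran from 3540043 to 7026393 counts, and the 3 miR146aKO libraries were the shallowest of the 12, with up to 4353971. The row Mir146 had 0 counts in 11 libraries and 14 in A031, a library labelled miR146aKO_Runx1mut, which goes against that label. The libraries at 0 include all those of wildtype and Runx1mut, so that a count of 0 does not tell the genotypes apart here. Because of the counts in A031, medians and counts of genes at an unadjusted p under 0.05 are also given without it for the double genotype. Values of single genes and counts of libraries apart include it. All 12 libraries held the gate genes, but unevenly. Kit (the Kit receptor) stood at 218 to 436 CPM (read counts scaled to the size and composition of the library) in wildtype and at 24.6 to 59.7 CPM in miR146aKO, and Ly6a (Sca-1) at 46.0 to 216 and 505 to 1020 CPM. Of 24421 symbols 12744 passed the filter on low counts and were tested, all 40 mitosis genes among them, and no mitosis gene had a count of 0 in any library.

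**Figure D1:**
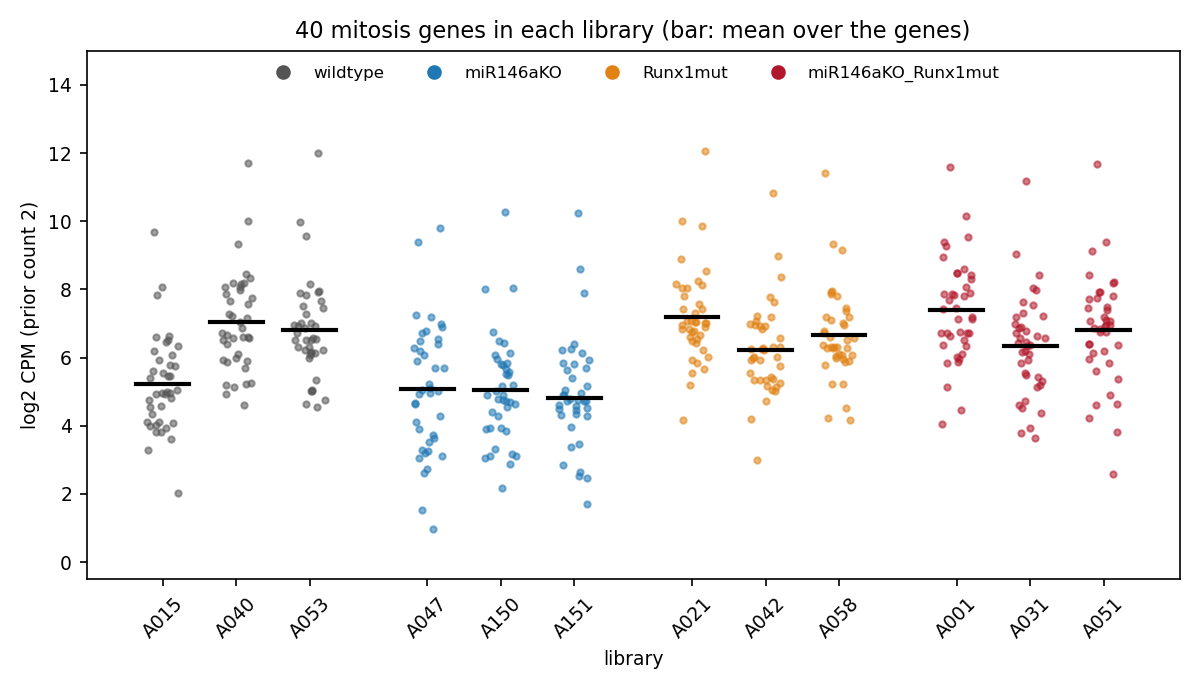
Each point is 1 of the 40 mitosis genes in 1 library (x axis, libraries coloured by genotype; y axis, log2 CPM), and the bar is the mean over the genes. The bars of the miR146aKO libraries lie between 4.81 and 5.07 and that of the wildtype library A015 at 5.22, while the other 8 lie at 6.23 or higher.

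The mitosis genes were at their lowest in the libraries without miR-146a and with normal Runx1. The mean of the 40 genes on the log2 CPM scale was 4.98 ± 0.14 (SD, n = 3) in miR146aKO, against 6.35 ± 0.99 in wildtype, 6.70 ± 0.49 in Runx1mut and 6.84 ± 0.53 in the double genotype. The miR146aKO group had the lowest mean CPM of the 4 groups for each of the 40 genes. The highest mean CPM belonged to the double genotype for 25 genes, to Runx1mut for 8 and to wildtype for 7 (Pbk, Top2a, Ttk, Spc25, Ncapd2, Nusap1 and Kif23).

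Wildtype was split. Library A015 had a mean of 5.22, near the miR146aKO libraries at 5.07, 5.05 and 4.81, while A040 and A053 had 7.03 and 6.81. A015 was the lowest wildtype library for all 40 genes. Summed over the genes, wildtype reached 2760 CPM in A015 and 10227 and 9985 CPM in the others, while miR146aKO held 2962 to 3350 CPM, Runx1mut 5508 to 11741 CPM and the double genotype 6441 to 12185 CPM. On this sum miR146aKO lay below both groups with mutant Runx1 and overlapped wildtype through A015.

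Below, the libraries of a genotype are always given in the order A015, A040, A053 (wildtype), A047, A150, A151 (miR146aKO), A021, A042, A058 (Runx1mut) and A001, A031, A051 (double genotype). Single values are CPM, scaled for library size and composition. They do not correct for gene length, so that levels of different genes are compared only per kilobase of exon. On that scale Mki67 (chromosome 7, 135689784 to 135716361) led in wildtype with 275 CPM per kb, before Smc4 with 104, Top2a with 85.1 and Ccnb2 with 80.9, and Kif2c was last with 5.45.

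Among the kinases and cyclins, Ccna2 (cyclin A2, active from S phase to early mitosis) stood at 73.2, 286 and 184 in wildtype, 83.4, 85.4 and 55.3 in miR146aKO, 263, 146 and 224 in Runx1mut and 315, 196 and 244 in the double genotype. Ccnb1 (cyclin B1, the partner of Cdk1 at mitotic entry) stood at 16.4, 116 and 67.1, then 51.2, 14.8 and 23.9, then 113, 40.3 and 58.5, then 227, 87.2 and 122. For both genes every double-genotype library lay above every miR146aKO library, and wildtype overlapped miR146aKO through A015. Ccnb2 (cyclin B2) averaged 124 ± 86.1 in wildtype, 61.2 ± 36.2 in miR146aKO, 127 ± 62.4 in Runx1mut and 168 ± 9.23 in the double genotype. Cdk1 itself averaged 68.7 ± 47.5, 16.2 ± 8.91, 82.8 ± 36.7 and 87.8 ± 52.1 in the same order. Plk1 (Polo-like kinase, which drives spindle assembly and mitotic exit) ran from 4.11 in A150 to 61.5 in A001.

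Pbk and Aurka departed from the other kinases and cyclins, each in its own way. Outside this class, Birc5 and Cenpa also had similar mean CPM in wildtype and miR146aKO, as Aurka did. Top2a, Aurkb and Ect2 were among the genes that, like Pbk, had a lower mean CPM in the double genotype than in Runx1mut. Pbk (a mitotic kinase, chromosome 14, 65805837 to 65817822) stood at 30.9, 93.9 and 130 in wildtype, 6.32, 7.98 and 10.7 in miR146aKO, 85.6, 53.2 and 62.6 in Runx1mut and 34.8, 13.3 and 41.0 in the double genotype. It was the 1 member for which every double-genotype library lay below every Runx1mut library. Aurka (Aurora A, the kinase of spindle poles, chromosome 2, 172356190 to 172370535) stood at 22.8, 34.9 and 26.3 in wildtype and at almost the same level in miR146aKO, with 31.9, 24.4 and 26.3. It was at 102, 40 and 59.7 in Runx1mut, all above wildtype, and at 204, 20.3 and 136 in the double genotype, where A031 was the lowest of all 12 libraries.

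The checkpoint genes and the proteins they restrain were also lowest in miR146aKO by group mean, but differed in the order of the other groups. Bub1b (BubR1, which inhibits Cdc20) stood at 54.7, 191 and 92.4, then 73.0, 27.3 and 27.3, then 133, 113 and 106, then 237, 80.7 and 106. Cdc20 (the activator of the anaphase promoting complex, chromosome 4, 118432901 to 118437352) stood at 16.8, 62.8 and 39.9 in wildtype, 9.48, 20.8 and 19.7 in miR146aKO, 133, 34.4 and 66.2 in Runx1mut and 106, 95.2 and 113 in the double genotype. All 3 double-genotype values of Cdc20 were thus above every wildtype and miR146aKO value, and close to each other. Ube2c (the ubiquitin-conjugating enzyme of the same complex) stood at 46.7, 267 and 154, then 147, 45.7 and 51.6, then 300, 78.2 and 241, then 619, 148 and 288. Ube2c shares 22.8% of its exon bases with Tnnc2 on the other strand, and these libraries cannot separate strands. Bub1 and Ttk, the other checkpoint kinases, averaged 50.9 ± 27.3 and 66.8 ± 44.5 in wildtype, and Ttk was the member with the smallest difference between the double genotype and miR146aKO.

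Of the chromosomal passenger complex, which corrects faulty attachments and later guides cytokinesis, Cdca8 (borealin) stood at 80.7, 155 and 130 in wildtype, 66.7, 67.3 and 73.8 in miR146aKO, 371, 122 and 138 in Runx1mut and 390, 184 and 300 in the double genotype. The 4 groups of Cdca8 were ordered with miR146aKO below every other library and the double genotype above every wildtype library. Aurkb (Aurora B, the kinase of the complex) averaged 71.7 ± 41.9, 19.3 ± 14.4, 87.9 ± 24.6 and 73.2 ± 28.2. Incenp (its scaffold) averaged 138 ± 59.3, 64.1 ± 41.1, 173 ± 76.4 and 152 ± 70.0. Birc5 (survivin) differed least between wildtype and miR146aKO among the 4, with 64.8 ± 34.9 and 61.0 ± 42.1.

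Cenpf (a large protein of the outer kinetochore, chromosome 1, 189640606 to 189688086) kept its 3 miR146aKO libraries close together and low. It stood at 98.5, 252 and 282 in wildtype, 59.7, 55.2 and 49.7 in miR146aKO, 283, 218 and 176 in Runx1mut and 492, 253 and 224 in the double genotype, so that each miR146aKO library lay below the other 9. Cenpe (a kinetochore motor that carries chromosomes to the spindle equator) stood at 91.3, 291 and 239, then 77.4, 47.2 and 75.2, then 475, 196 and 231, then 667, 265 and 213, again with miR146aKO below the other 9. Nuf2 and Ndc80, which form the arm that grips microtubules, averaged 38.9 ± 23.4 and 50.5 ± 31.9 in wildtype and 8.84 ± 5.33 and 16.6 ± 8.22 in miR146aKO. Spc25, of the same 4-part complex, ran from 1.58 to 32.3 CPM over the 12 libraries. Cenpa (the histone that marks centromeres) stood apart from wildtype in the double genotype, with 73.4 to 179 CPM against 13.7 to 68.4.

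Smc4 (a core subunit of condensin, which compacts chromosomes) overlapped between all genotypes. It stood at 226, 637 and 757 in wildtype, 669, 261 and 383 in miR146aKO, 1030, 332 and 647 in Runx1mut and 1140, 524 and 561 in the double genotype, with the highest miR146aKO library above the lowest library of each other group. Smc2, its partner, averaged 213 ± 102, 92.4 ± 11, 199 ± 65.9 and 277 ± 113, and the condensin subunits Ncapd2 and Ncapg averaged 167 ± 140 and 56.1 ± 36.3 in wildtype and 75.1 ± 48.4 and 14.9 ± 6.85 in miR146aKO. Top2a (topoisomerase II alpha, which untangles sister chromatids, chromosome 11, 98992943 to 99024189) averaged 767 ± 433, 216 ± 55.5, 670 ± 226 and 584 ± 210.

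The spindle motors and microtubule proteins were the role class with the largest median difference in miR146aKO. Tpx2 (which activates Aurora A on the spindle, chromosome 2, 152847964 to 152895321) stood at 61.0, 267 and 175 in wildtype, 11.1, 54.9 and 25.8 in miR146aKO, 281, 121 and 144 in Runx1mut and 356, 119 and 242 in the double genotype. Hmmr (a spindle protein that works with Tpx2) stood at 43.4, 349 and 115, then 25.0, 36.3 and 32.9, then 128, 76.8 and 144, then 360, 94.7 and 175. In both, miR146aKO lay below all other libraries, though A015 was near it. Kif11 (the motor that pushes spindle poles apart) stood at 66.6, 234 and 241, then 88.5, 31.9 and 42.1, then 170, 150 and 165, then 266, 110 and 209. Kif2c (which removes wrongly attached microtubules) had a single count in A151, so that its differences rest on few reads there. Kif4 and Nusap1 averaged 88.7 ± 43.3 and 161 ± 104 in wildtype and 35.6 ± 18.8 and 59.8 ± 50.3 in miR146aKO.

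Of the cytokinesis genes, Kif23 (a motor of the central spindle) stood at 31.6, 149 and 106, then 19.3, 26.4 and 26.8, then 109, 95.5 and 67.9, then 107, 60.1 and 83.2. Anln (anillin, of the contractile ring) stood at 30.2, 91.5 and 90.8, then 51.2, 50.1 and 19.2, then 124, 75.8 and 79.4, then 223, 72.0 and 120. The miR146aKO libraries of Kif23 lay below all others, while A015 overlapped them for Anln. Prc1 and Kif20a, which bundle midzone microtubules and carry cargo to them, averaged 47.8 ± 23.2 and 77.6 ± 28.8 in wildtype and 18.5 ± 8.35 and 26.0 ± 11.6 in miR146aKO. Kif20a shares 29.3% of its exon bases with Cdc23 on the other strand, Prc1 11.1% with Rccd1, Kif4 15.1% with Pdzd11, Ncapg 13.4% with Lcorl and Ccna2 12.5% with Exosc9. Ect2 and Racgap1, which switch on RhoA at the division plane, averaged 38.6 ± 32.0 and 54.6 ± 40.4 in wildtype and 9.78 ± 6.92 and 36.0 ± 21.6 in miR146aKO. Mki67, the Ki-67 antigen of cycling cells, stood at 823, 3370 and 4110 in wildtype, 889, 1230 and 1200 in miR146aKO, 4280, 1820 and 2710 in Runx1mut and 3100, 2310 and 3310 in the double genotype. All 6 libraries with mutant Runx1 were above all 3 miR146aKO libraries for Mki67.

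**Figure D2:**
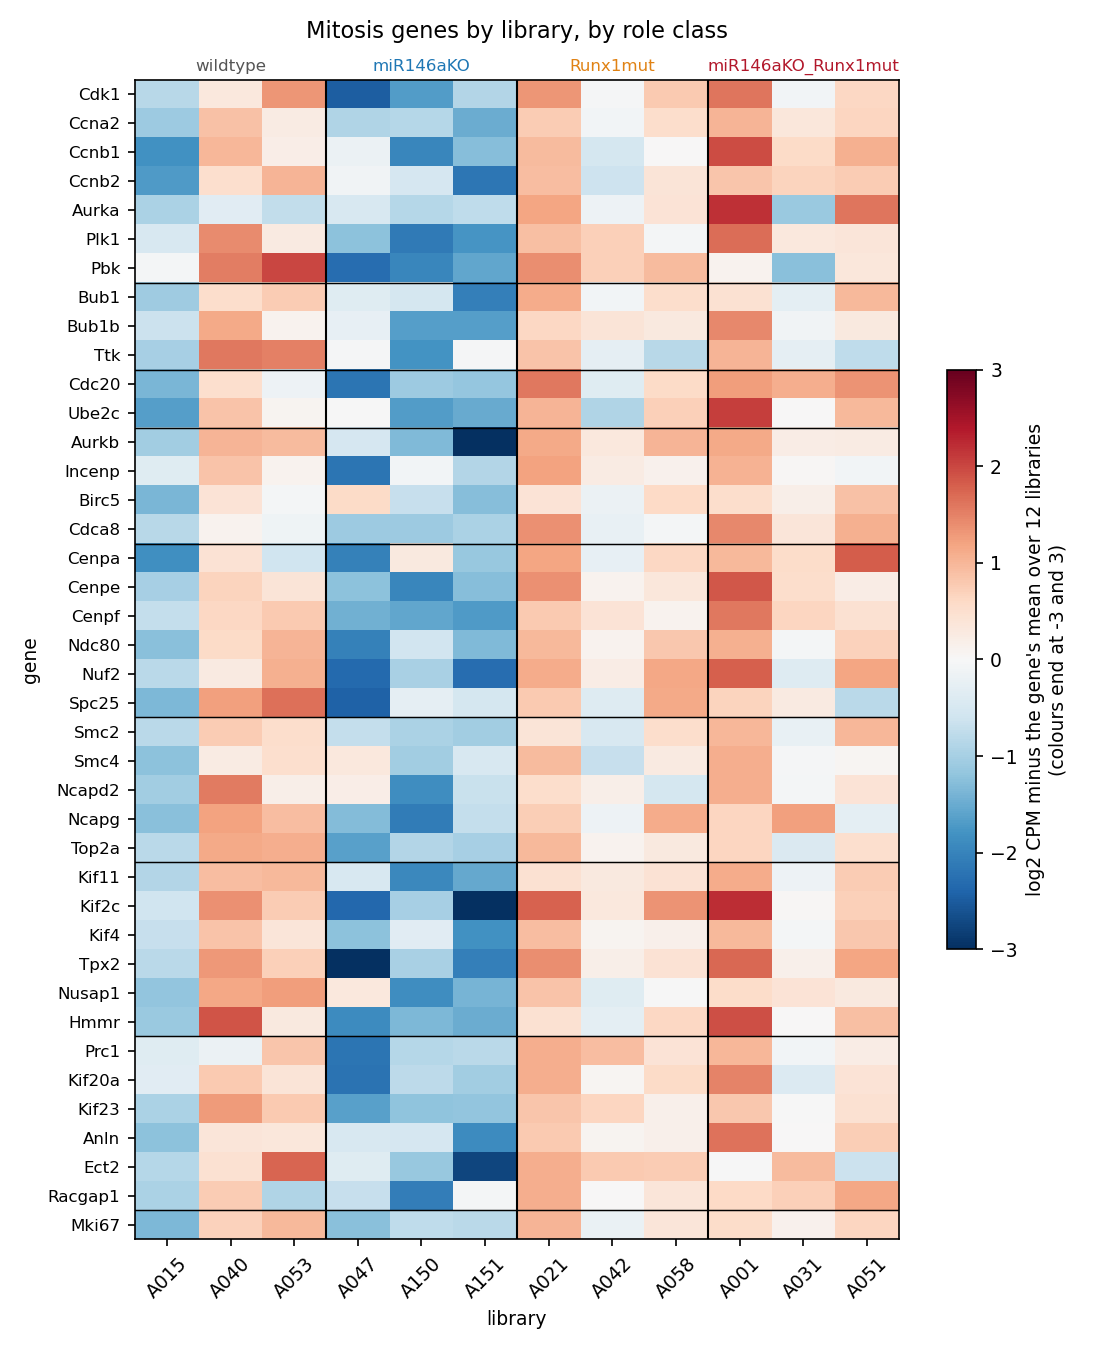
Colour gives each gene's log2 CPM in a library minus that gene's mean over the 12 libraries (rows, 40 genes with lines between role classes; columns, libraries with lines between genotypes). Blue cells gather in A015 and the 3 miR146aKO libraries, and A001 holds the highest value of 20 genes.

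**Figure D3:**
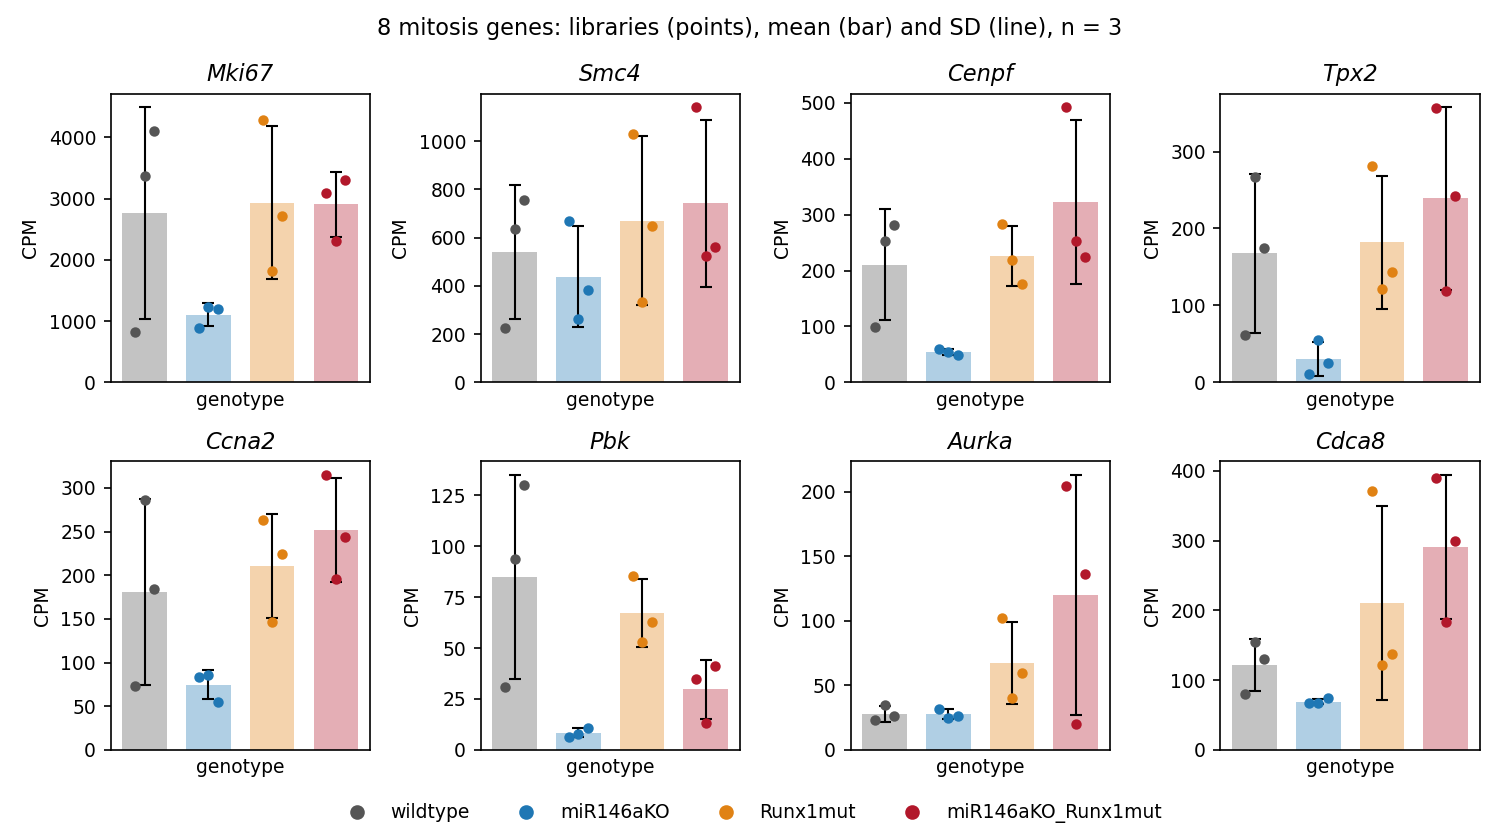
CPM of 8 mitosis genes by genotype, with a point for each library, a bar for the mean and a line for the SD (n = 3, linear axes from 0). Cenpf, Tpx2, Pbk and Cdca8 have all miR146aKO points below all wildtype points, while Aurka is alike in wildtype and miR146aKO, and Smc4 overlaps throughout.

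The first comparison asked what loss of miR-146a did with normal Runx1. All 40 mitosis genes had a lower fitted level in miR146aKO than in wildtype, with a median log2 fold change of -1.42 (range -3.34 to -0.02), against -0.003 over all 12744 genes tested. The edgeR quasi-likelihood test called 0 of the 40 after Benjamini-Hochberg adjustment, where it called 0.18% of all genes. DESeq2 called 11, all lower, where it called 2.24% of all genes lower. With limma-voom 0 were called, where it called 0.549% of all genes higher and 0.0471% lower. At an unadjusted p under 0.05, 24 of the 40 were lower (60%), against 7.09% of all genes, and with limma-voom 10 were, against 5.89%. In 14 of the 40 all miR146aKO libraries lay below all wildtype libraries, against 10.5% of all genes. These were Nuf2, Cenpf, Cdk1, Hmmr, Top2a, Pbk, Kif20a, Tpx2, Cenpe, Kif2c, Cdca8, Prc1, Plk1 and Kif23, and each of the 14 was also below every library of the other groups (2.88% of all genes were).

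The 3 genes of smallest p were Pbk, with a log2 fold change of -3.34 (SE 0.64, edgeR adjusted p = 0.0529), Cenpf with -1.94 (SE 0.45, adjusted p = 0.0725) and Kif23 with -1.98 (SE 0.53, adjusted p = 0.113). Pbk lay so near the threshold that settings decided it. DESeq2 called it with an adjusted p of 2.72e-05, and edgeR called it without A001, A031, A042 or A051, libraries of the other genotypes, with adjusted p from 0.0374 to 0.0494. Several other settings called no mitosis gene. There the smallest edgeR adjusted p of the 40 was 0.11 without A040, 0.148 without A150, 0.165 without A151 and 0.174 without A053. It was 0.279 in edgeR with the level of Y-linked genes as a covariate, and 0.149 with limma-voom. At the other end, Aurka had -0.02 (SE 0.64), Birc5 -0.09 and Cenpa -0.26. By role class, the median log2 fold change was -2.08 for spindle motors and microtubule proteins, -1.74 for centromere and kinetochore, -1.47 for cytokinesis, -1.40 for the checkpoint, -1.28 for kinases and cyclins, -1.20 for condensin and topoisomerase, -1.10 for Cdc20 and Ube2c and -0.96 for the passenger complex.

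This comparison depended on single libraries. With all of them, 24 of the 40 genes were lower at an unadjusted edgeR p under 0.05. The number was 18 without A040 (6.04% of all genes), 17 without A053 (5.58%), 17 without A151 (5.03%) and 20 without A150 (5.69%). The median log2 fold change was -1.25 without A040 and -1.27 without A053. Without A015 it was -1.79, and 32 of the 40 genes were lower at that threshold (6.35% of all genes were). Then 34 of the 40 had all miR146aKO libraries below the remaining 2 wildtype libraries, against 16.1% of all genes. In the same setting, 27 of the 40 had miR146aKO below the 8 remaining libraries, against 3.48% of all genes. The counts of genes with libraries apart without A015 were added after the data were seen. A015 was the lowest wildtype library for all 40 genes, so leaving it out could only keep or raise those counts. They are not further evidence, and the shares over all genes carry no such selection. The edgeR test still called 0 of the 40, where it called 0.0225% of all genes lower.

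The next comparisons set the groups with mutant Runx1 against miR146aKO. They share the miR146aKO libraries with each other and with the comparison above, so they are not separate evidence. In the double genotype all 40 genes had a higher fitted level than in miR146aKO, with a median log2 fold change of 1.81 (range 0.64 to 3.43). The edgeR test called 0 of 40, where it called 0.0157% of all genes. DESeq2 called 17, all higher, where it called 2.13% of all genes higher. With limma-voom 0 were called, where it called 0% of all genes higher and 0.0942% lower. At an unadjusted p under 0.05, 32 of the 40 were higher, against 7.60% of all genes, and in 32 all libraries lay apart, against 9.47%. The 8 that overlapped were Birc5, Spc25, Nusap1, Aurka, Ect2, Smc4, Ncapd2 and Ttk. Cenpf had a log2 fold change of 2.56 (SE 0.46, edgeR adjusted p = 0.0582), Cenpe 2.52 (SE 0.56, adjusted p = 0.103) and Tpx2 2.96 (SE 0.68, adjusted p = 0.11). Without A015, a library of neither group compared, Cenpf passed with an edgeR adjusted p of 0.0472. That fit repeated the filter and scaling, tested 13349 genes and called 0.015% of them higher. Without A031, the median was 2.05, and 31 genes were higher at an unadjusted p under 0.05, against 7.57% of all genes. In that fit 0 of the 40 were called, where 0% of all genes were called higher and 0.0224% lower.

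In Runx1mut, too, all 40 genes had a higher fitted level than in miR146aKO, with a median log2 fold change of 1.55 (range 0.53 to 3.41). With edgeR 0 of 40 were called, against 0.141% of all genes. DESeq2 called 15, all higher, where it called 1.79% of all genes higher. With limma-voom 0 were called, where it called 0.0235% of all genes higher and 0.314% lower. At an unadjusted p under 0.05, 29 were higher, against 6.35% of all genes, and in 30 all libraries lay apart, against 11.7%. Pbk had 3.00 (SE 0.63, edgeR adjusted p = 0.0758), Cenpf 2.04 (SE 0.45, adjusted p = 0.0789) and Cenpe 2.17 (SE 0.55, adjusted p = 0.116). Smc4 had 0.62 (SE 0.53) and Birc5 0.56.

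Against wildtype, no mitosis gene passed the test in either group with mutant Runx1. In Runx1mut 29 of 40 were higher and 11 lower in fitted level, and the median log2 fold change was 0.17. The edgeR test called 0 (0% of all genes), and so did limma-voom (0% of all genes). DESeq2 called 0 of the 40, where it called 0.392% of all genes higher and 0.51% lower. None had an unadjusted edgeR p under 0.05, where 2.64% of all genes were higher and 2.88% lower. Aurka, at 1.26 (SE 0.65, edgeR adjusted p = 0.943), was the 1 member with all Runx1mut libraries above wildtype, against 5.72% of all genes, and none had them all below, against 6.41%. Cdca8 had 0.79 (SE 0.46) and Cdc20 0.97 (SE 0.58). The sign of the median turned without A015, to -0.18, and without A021, to -0.09.

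In the double genotype 32 of 40 were higher than wildtype and 8 lower, and the median log2 fold change was 0.34. The edgeR test called 0 (0% of all genes), and so did limma-voom (0% of all genes). DESeq2 called 0 of the 40, where it called 0.84% of all genes higher and 0.667% lower. An unadjusted edgeR p under 0.05 was found for 4 genes that were higher, against 4.99% of all genes, and for 1 that was lower, against 4.43%. The 4 were Aurka with 2.10 (SE 0.66, edgeR adjusted p = 0.470), Cdca8 with 1.26 (SE 0.46, adjusted p = 0.475), Cdc20 with 1.39 (SE 0.59, adjusted p = 0.488) and Cenpa with 1.62. The 1 was Pbk, with -1.51 (SE 0.59, adjusted p = 0.478). Libraries lay apart and higher for Cdc20, Cdca8 and Cenpa, against 6.32% of all genes, and apart and lower for none, against 7.17%. The median was 0.62 without A031 and -0.0001 without A015. Without A031, 5 genes were higher at an unadjusted edgeR p under 0.05 and 0 lower, against 5.1% and 7.61% of all genes, so that Pbk no longer passed it.

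Between the double genotype and Runx1mut, 28 genes were higher and 12 lower, and the median log2 fold change was 0.24. The edgeR test called 0 (0% of all genes), and so did limma-voom (0% of all genes). DESeq2 called 0 of the 40, where it called 0.549% of all genes higher and 0.0628% lower. None had an unadjusted edgeR p under 0.05, where 2.88% of all genes were higher and 1.75% lower. Pbk, at -1.18 (SE 0.59, edgeR adjusted p = 0.999), was the 1 member with all libraries apart and lower, against 5.42% of all genes, and none lay apart and higher, against 3.85%. Ccnb1 had 1.04 (SE 0.68) and Hmmr 0.85 (SE 0.64), with overlapping libraries. The median was 0.41 without A031 and -0.05 without A001. Without A031, 1 gene was higher at an unadjusted edgeR p under 0.05 and 0 lower, against 3.32% and 5.06% of all genes.

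**Figure D4:**
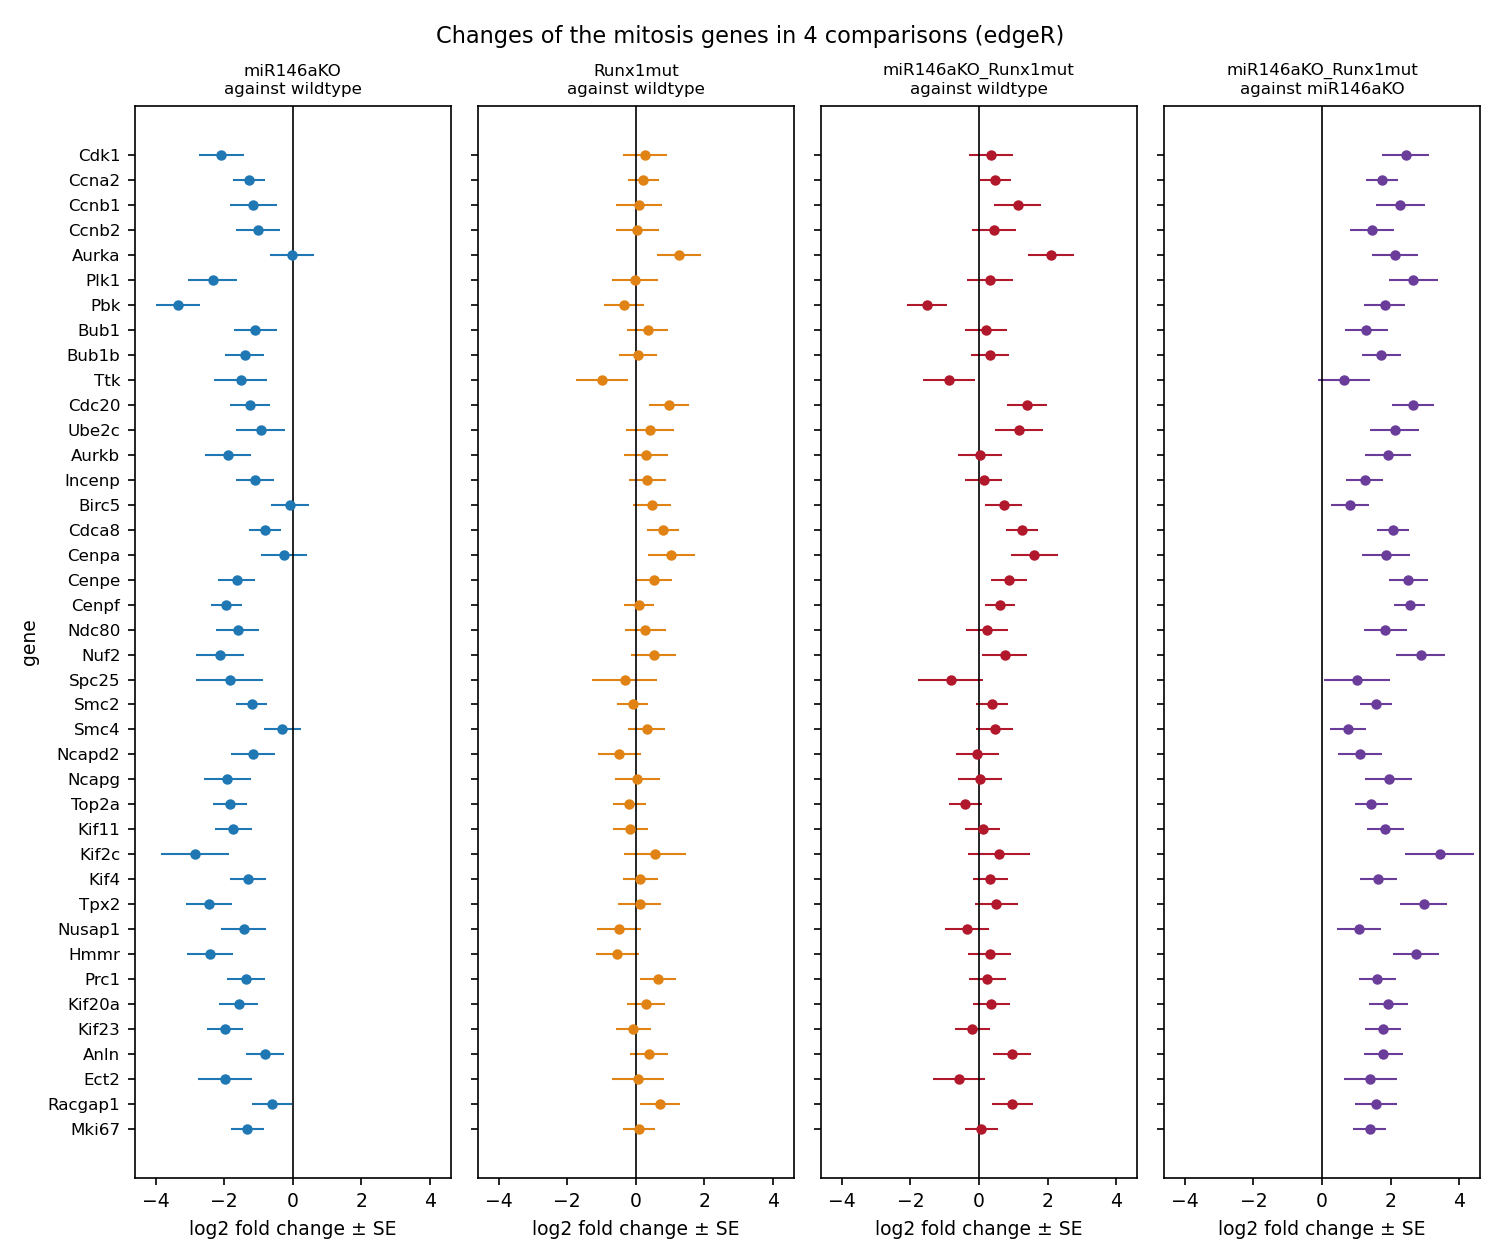
Log2 fold change from edgeR, with an SE derived from its F statistic, for the 40 mitosis genes (rows, in role order) in 4 comparisons (panels). All 40 points lie left of 0 for miR146aKO against wildtype and right of 0 for the double genotype against miR146aKO, while 29 and 32 of 40 lie right of 0 for Runx1mut and the double genotype against wildtype.

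The interaction asked whether mutant Runx1 changed the genes differently when miR-146a was absent. It is the log2 difference of the double genotype from miR146aKO minus that of Runx1mut from wildtype. It was above 0 for all 40 genes, with a median of 1.63 (range 0.33 to 3.28). The interaction also equals the log2 difference of the double genotype from Runx1mut minus that of miR146aKO from wildtype. It thus holds the difference already described, in which all 40 genes were lower in miR146aKO (median -1.42). For that reason it is not separate evidence. With edgeR 0 of 40 were called, against 0.0235% of all genes, and with limma-voom 0, against 0% of all genes. DESeq2 called 2, both higher, where it called 0.463% of all genes higher. Of the 40, 15 had an unadjusted p under 0.05 with a positive value, against 4.43%. Cenpf had 2.46 (SE 0.62, edgeR adjusted p = 0.312), Hmmr 3.28 (SE 0.92, adjusted p = 0.341) and Tpx2 2.84 (SE 0.91, adjusted p = 0.352), while Birc5 had 0.33 and Smc4 0.45 (SE 0.75). These values leaned on single libraries. Leaving out 1 library at a time moved the median from 1.31 (without A001) to 2.02 (without A015), and it was 1.80 without A031. The number of genes at an unadjusted p under 0.05 was 6 without A001, 7 without A040, 8 without A042 or A053 and 10 without A058, but 20 without A031 and 29 without A015. It was 24 without the low-count filter, 6 with the level of Y-linked genes as a covariate and 5 with limma-voom. Over all genes tested, the share past this threshold with a positive value ran from 3.11% to 4.76% in these settings.

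Other genes of the same phase, from a longer list of 77 tested genes, lay mostly on the same side. Against wildtype, 69 of the 77 were lower in miR146aKO and 8 higher, and the median log2 fold change was -0.999. The edgeR test called 1 of the 77, where it called 0.18% of all genes. This was Gas2l3 (a linker of actin and microtubules), with 189 ± 17.2 CPM in wildtype and 35.4 ± 8.32 CPM in miR146aKO (log2 fold change -2.42, SE 0.42, edgeR adjusted p = 0.0414). Aspm (a spindle pole protein) stood at 189 ± 108 and 45 ± 11 CPM (adjusted p = 0.0685). Pttg1 (securin, the inhibitor of sister chromatid separation) went the other way, with 21.7 ± 6.81 CPM in wildtype and 123 ± 14.1 in miR146aKO (log2 fold change 2.5, SE 0.63, adjusted p = 0.0954). In the double genotype 72 of the 77 were higher than in miR146aKO, with a median of 1.33 and a smallest edgeR adjusted p of 0.0819.

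The regulators of the mitosis genes were measured as well. Foxm1 averaged 46.5 ± 27.7 CPM in wildtype, 15.1 ± 3.83 in miR146aKO, 75.7 ± 28.5 in Runx1mut and 119 ± 52.8 in the double genotype. Its log2 fold change between the double genotype and miR146aKO was 2.97 (SE 0.59, edgeR adjusted p = 0.0891), while over the 11 regulators listed 7 were higher and 4 lower in that comparison, with a median of 0.11. Mybl2 (B-Myb) averaged 26.3 ± 7.81, 14.1 ± 18.2, 61.7 ± 44.9 and 132 ± 101 CPM. Of the 11, 9 were lower in miR146aKO than in wildtype with a median log2 fold change of -0.80 and a smallest edgeR adjusted p of 0.155.

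Genes of S phase, the step before, were described in the same way. Of 20 tested, 19 were lower in miR146aKO than in wildtype, with a median log2 fold change of -0.97, and 18 were higher in the double genotype than in miR146aKO, with a median of 0.67. The smallest edgeR adjusted p was 0.140 in the first comparison and 0.253 in the second. Mcm2 (a subunit of the replicative helicase) averaged 160 ± 97.1 CPM in wildtype, 48.2 ± 15.8 in miR146aKO, 119 ± 42.9 in Runx1mut and 62.4 ± 22.7 in the double genotype. Its double-genotype mean was thus below wildtype, unlike that of 32 mitosis genes by their fitted level. Mcm2 does not stand for the list. Cdc6 went from 67.5 ± 19.5 CPM in wildtype to 133 ± 70.8 in the double genotype, and Mcm7 from 173 ± 107 to 250 ± 155.

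Markers of other cell types moved with the level of the mitosis genes in 2 ways, and their part in these results was not tested. First, the miR146aKO libraries carried markers of B and plasma cells. The 10 B lineage markers summed to 465 to 2715 CPM in miR146aKO, 21 to 88 in wildtype, 14 to 156 in Runx1mut and 55 to 109 in the double genotype, and all 10 were higher in miR146aKO than in wildtype, where Pax5 was at 0. The 4 plasma cell markers summed to 3483 to 12303 CPM in miR146aKO, 38 to 686 in wildtype, 102 to 1477 in Runx1mut and 132 to 427 in the double genotype. The 8 monocyte and macrophage markers reached 7339 CPM in A150 and 5342 in A151, but 294 in A047. They summed to 70 to 374 CPM in wildtype and 45 to 286 in Runx1mut, and were also high in the double genotype, with 814 to 5339 CPM. The 5 megakaryocyte markers summed to 24 to 63 CPM in miR146aKO, 92 to 735 in wildtype, 98 to 1284 in Runx1mut and 9 to 1412 in the double genotype. Sums of T and NK, erythroid and stromal markers overlapped between all groups. They were 23 to 1454, 3 to 222 and 1 to 385 CPM in miR146aKO, 89 to 356, 3 to 20 and 1 to 13 CPM in wildtype, 7 to 103, 2 to 24 and 0 to 17 CPM in Runx1mut, and 57 to 666, 1 to 764 and 1 to 574 CPM in the double genotype. The 4 Y-linked genes summed to 99 to 241 CPM in miR146aKO, 1 to 32 in wildtype, 26 to 170 in Runx1mut and 14 to 214 in the double genotype. In the comparison of miR146aKO with wildtype, 13 mitosis genes were lower at an unadjusted p under 0.05 when that level was a covariate (24 without it), against 4.76% of all genes in the same fit.

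Second, within the other 3 genotypes the library with the lowest level of the mitosis genes was also an extreme in the summed levels of stem cell, granulocyte and megakaryocyte markers. A015, A042 and A031 had the lowest mean of the mitosis genes in their groups (5.22, 6.23 and 6.33 on the log2 CPM scale). The same 3 libraries had the highest sum of the 10 gate and stem cell markers in their groups, 3279, 2673 and 1519 CPM, where the other 6 had 288 to 2410. They also had the lowest sum of the 9 markers of granulocyte precursors and neutrophils (Mpo, Elane and others), 2266, 2646 and 13341 CPM, where the other 6 had 8051 to 59782. Their sums of the 5 megakaryocyte markers were the highest of their groups, 735, 1284 and 1412 CPM. The remaining libraries of Runx1mut and of the double genotype kept the same order for all 3 sums. In wildtype, A040 had a higher mitosis mean than A053 (7.03 against 6.81) and a higher granulocyte sum. But its gate and stem cell sum (2410 against 1632 CPM) and megakaryocyte sum (452 against 92 CPM) were higher too. Single markers did not all follow the sums, and Mpo alone made up 48600 of the 59782 CPM in A001. Among wildtype libraries Cd34 was lowest in A015 (71.1 CPM, against up to 432). The lowest double-genotype levels of Ngp (175 CPM) and Camp (53.1 CPM) were in A001 and not in A031. The miR146aKO libraries, with low mitosis genes, had 723 to 1559 CPM of gate and stem cell markers and 3792 to 12107 CPM of granulocyte markers, which lay within the range of the other libraries. Of the 10 gate and stem cell markers 9 were lower in miR146aKO than in wildtype, and Ly6a was higher.

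**Figure D5:**
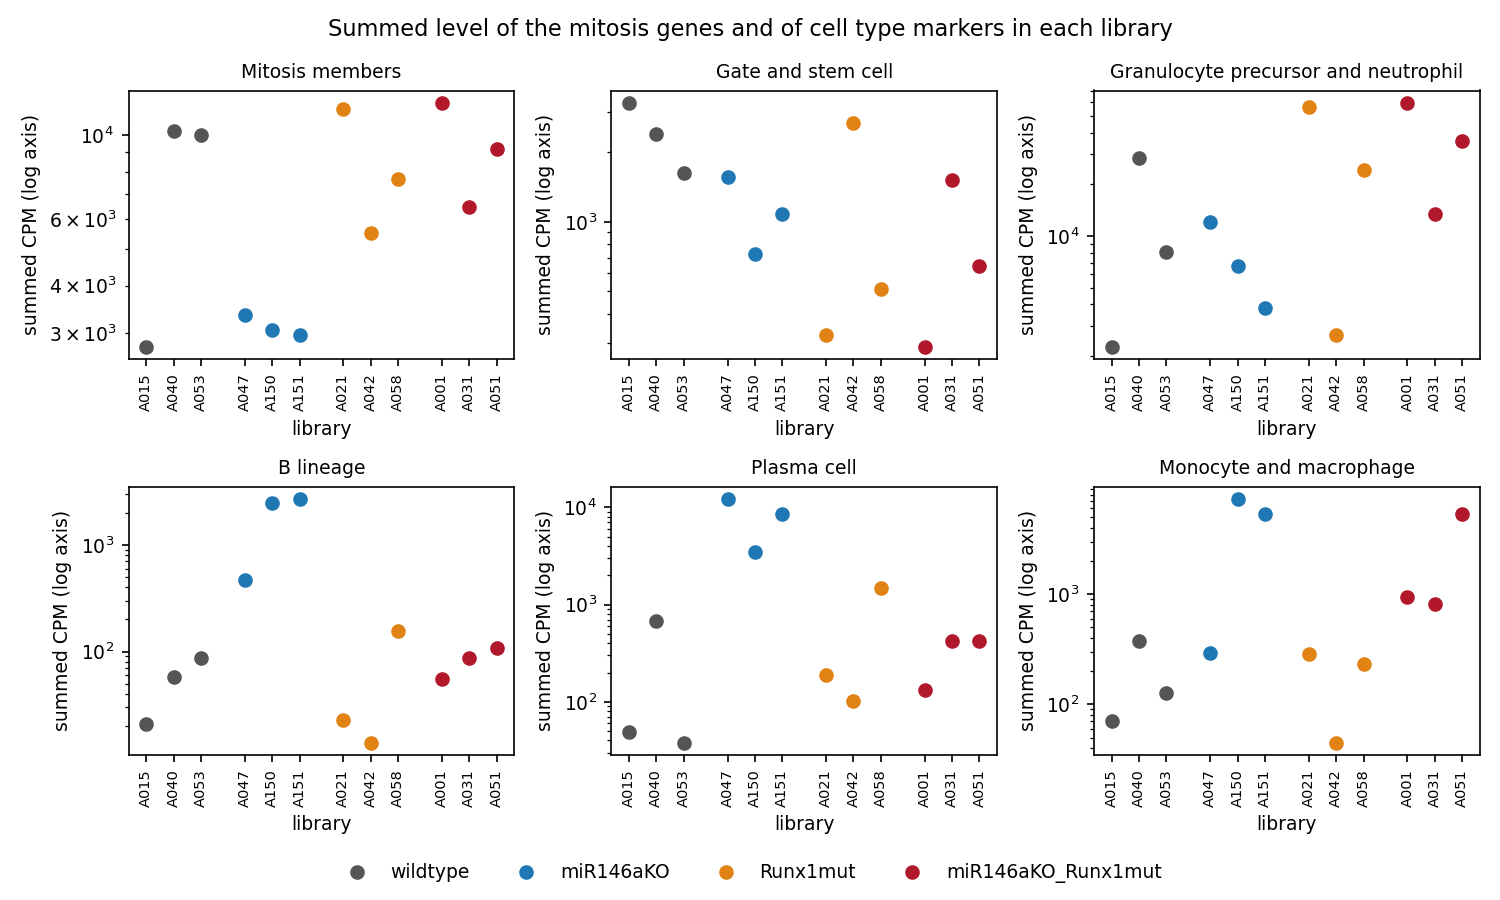
Summed CPM (log axes) of the 40 mitosis genes and of 5 marker lists in each library, coloured by genotype. B lineage and plasma cell markers are highest in the 3 miR146aKO libraries, and A015, A042 and A031 combine the lowest mitosis and granulocyte sums of their genotypes with the highest gate and stem cell sums.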

How the data were processed

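RNA of sorted GFP-positive LSK cells was amplified with the NuGEN Ovation v2 kit and made into Nextera XT libraries, per the labels' protocols. Such libraries keep no strand. The authors deposited raw read counts per gene symbol. FastQC 0.11.2, HISAT2 2.0.4, featureCounts 1.5.2 and build mm10 were used, per the submitters' processing notes. How strand and multiply mapped reads were handled in counting, and with which annotation release, is not given in the sources used here. Columns carried a genotype and no replicate number, so libraries are named by their column.

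From these counts, edgeR 4.0.16 (R 4.3.3) fitted all 12 libraries at once, with TMM scaling, its default low-count filter and the quasi-likelihood test. Calls needed an adjusted p under 0.05 (Benjamini-Hochberg over 12744 genes). The common biological coefficient of variation was 0.809. Log2 CPM used a prior count of 2. The SE given with an edgeR log2 fold change is the size of that change divided by the square root of the test's F statistic. The script was tested on simulated counts. DESeq2 1.42.0, limma-voom (limma 3.58.1), no filter, other scaling, a Y-linked covariate, fits of the compared groups alone, and leaving out each library were alternatives. Counts of genes whose libraries lay apart without A015 were added after the data were seen.

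The members, role classes and gene lists were chosen with earlier results of these data known. All 40 members are named. Values in every library are given for the member of highest mean log2 CPM in each role class and for the 3 of smallest p in each comparison. Of the other lists up to 4 genes of smallest p per comparison could be named. Exon overlaps, lengths and 3′ UTRs came from GENCODE vM21 (GRCm38), and promoters and the microRNA from RefSeq (GRCm38.p6).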

Additional observations from a re-analysis of the deposited data

How the results depend on the processing

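The median log2 fold change of the 40 mitosis genes moved by less than 1 SD (pooled over the groups compared, of each library's mean over the 40 genes) under each alternative run. It kept its sign in the 3 comparisons that involve miR146aKO and in the interaction, with ranges of -1.79 to -1.25 against wildtype, 1.54 to 2.05 for the double genotype, 1.37 to 1.85 for Runx1mut and 1.31 to 2.02. It turned sign for Runx1mut against wildtype (-0.18 to 0.46), the double genotype against wildtype (-0.0001 to 0.62) and the double genotype against Runx1mut (-0.05 to 0.44). The number of them called depended on the tool and on the filter. For miR146aKO against wildtype, edgeR called 0 and DESeq2 11 (of 286 genes it called lower, 2.24% of all genes). There edgeR called 10 without a low-count filter (1.31% of all genes lower) and 1 on only the 2 groups compared (0.28%). For the double genotype against miR146aKO the numbers were 0, 17 with DESeq2 (2.13% of all genes higher) and 19 without the filter (1.33%). For Runx1mut against miR146aKO they were 0, 15 (1.79%) and 15 (1.26%), and for the interaction 0, 2 (0.463%) and 3 (0.463%). The cause was not tested. Leaving out 1 library at a time gave 0 to 1 called for miR146aKO against wildtype (0% to 0.163% of all genes lower). It gave 0 to 1 for the double genotype against miR146aKO (0% to 0.015% of all genes higher). limma-voom, DESeq2's size factors in edgeR, leaving out Rn45s and the Y-linked covariate called 0 in each of the 7 contrasts. Over all genes, these settings called 0% to 0.549% higher and 0% to 0.314% lower. No paired analysis was possible because the columns of the count table carry no replicate number. Depth limits the members of lowest level, such as Kif2c with 1 count in A151.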
